A study of Mus musculus with 3 samples.

Results

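The genes described here are 10 genes of the tight junction and of claudin-based paracellular transport, Cldn2, Cldn3, Cldn4, Cldn7, Cldn15, Cldn23, Tjp1, Ocln, F11r and Mylk, followed by symbol through 3 single-cell libraries of mouse colon organoids. They are 10 of the 32285 features in the count matrices, and all 10 were detected in each library. Tight junctions seal the space between neighbouring epithelial cells near their apical side and set which ions and solutes can pass between cells. Claudins form the strands of the junction. Some of them, such as claudin-2 and claudin-15, line channels for small cations and water, whereas others tighten the seal. Occludin and JAM-A lie in the same membrane domain, ZO-1 ties the strands to actin, and myosin light chain kinase drives contraction of the actomyosin ring that opens the junction in inflamed gut. IFN-γ is a cytokine long studied for its effect on this barrier.

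The organoids are cultures of colon epithelium grown from isolated crypts. By the study's text they came from wild-type mice and were kept in full medium, which holds R-spondin, a Wnt surrogate, a GSK3 inhibitor, EGF, Noggin and a TGF-β receptor inhibitor, with a ROCK inhibitor after seeding and passaging. The first library was untreated, 1 was exposed to IFN-γ for 24 h and 1 for 48 h. Live cells were sorted by DAPI exclusion, and transcripts were counted with 3' chemistry (10x Genomics) as unique molecular identifiers (UMIs), so that each captured mRNA molecule counts once whatever the length of the gene. The labels give neither strain nor age for these libraries, nor whether several mice or lines were pooled. The cultures hold no stroma, immune cells, lumen content or microbes.

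A barcode was taken as a cell from 5000 UMIs and 400 genes upwards, with mitochondrial UMIs no higher than 15%, which gave 1058 cells untreated, 917 at 24 h and 2934 at 48 h. Levels are counts per 1000000 UMIs (CPM) summed over these cells, from 47243500 to 71077817 UMIs per library, and the median depth per cell was 33550, 68784 and 10772 UMIs. How well each gene's mRNA is captured is unknown, so levels of different genes are only roughly comparable, and in these sums fewer cells of a type cannot be told apart from less RNA per cell. Each condition had 1 library, so no test across samples was possible, and the 95% intervals given with levels, ratios and shares cover counting error only. Both treated libraries were compared with the same untreated library. Cells of the libraries shared 1 to 4 barcodes per pair. All 6 epithelial markers were present in each library, while the summed level of fibroblast markers did not exceed 0.0422 CPM and that of 5 immune markers 0.321 CPM, with Ptprc at 0. Smooth muscle markers, which matter for Mylk, summed to 8.25, 17.5 and 24.998 CPM, of which Acta2 gave the highest share in both treated libraries and Des was at 0. As a check of the treatment, Irf1, an interferon-induced transcription factor, stood at 23.5 CPM untreated, 331.2 CPM at 24 h and 309.8 CPM at 48 h. The median log2 ratio of all genes tested (at least 50 UMIs over the 2 libraries) was -0.38 at 24 h and -0.14 at 48 h, so a ratio near these values was typical of the library.

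The DNA before the start sites of the channel-forming pair and of the most abundant claudin is shown because these genes carry the comparisons that follow. The table of RefSeq promoters (GRCm38.p6) held 11 entries for 9 of the 10 genes. Capitals mark matches, on either strand, to TTTAT, a core recognised by CDX homeobox factors, to TTCNNNGAA, the gamma-interferon activated site (GAS), or to GAAA, 2 bases of any kind and GAAA, the core of the interferon-stimulated response element. Each run is 250 bases upstream of a RefSeq start, 5′ to 3′ in the direction of the gene.
Cldn2, chrX:139800558-139800807, plus strand: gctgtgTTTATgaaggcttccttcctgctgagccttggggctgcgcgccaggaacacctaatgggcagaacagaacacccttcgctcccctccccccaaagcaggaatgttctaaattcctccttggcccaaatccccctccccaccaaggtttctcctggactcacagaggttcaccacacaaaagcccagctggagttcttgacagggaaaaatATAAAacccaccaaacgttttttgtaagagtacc
Cldn15, chr5:136967619-136967868, plus strand: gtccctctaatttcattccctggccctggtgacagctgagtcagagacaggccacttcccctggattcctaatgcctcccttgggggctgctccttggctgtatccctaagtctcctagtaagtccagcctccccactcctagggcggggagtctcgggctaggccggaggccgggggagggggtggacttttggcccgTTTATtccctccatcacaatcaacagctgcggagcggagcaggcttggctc
Cldn7, start a, chr11:69964529-69964778, plus strand: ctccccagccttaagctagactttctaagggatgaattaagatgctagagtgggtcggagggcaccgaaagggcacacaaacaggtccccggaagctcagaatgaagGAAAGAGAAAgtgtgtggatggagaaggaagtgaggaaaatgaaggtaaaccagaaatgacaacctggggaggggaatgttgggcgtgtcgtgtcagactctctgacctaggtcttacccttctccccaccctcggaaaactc
Cldn7, start b, chr11:69965171-69965420, plus strand: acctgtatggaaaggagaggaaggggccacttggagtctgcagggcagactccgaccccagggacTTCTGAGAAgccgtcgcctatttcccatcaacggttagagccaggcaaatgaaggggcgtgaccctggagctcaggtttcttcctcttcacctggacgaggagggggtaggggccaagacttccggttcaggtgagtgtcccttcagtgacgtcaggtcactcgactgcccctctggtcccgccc
The Cldn2 window had TTTAT 244 bases before the start and its reverse 34 bases before it, the latter overlapping a TATA box (TATAAA). Cldn15 had 1 TTTAT at 51 bases. TTTAT or its reverse was found in 37.3% of the 32851 upstream windows in the table and TATAAA in 12.4%. Of the 9 genes, Cldn7 alone had a GAS match, 185 bases before start b, and Cldn7 and Mylk had an interferon response core, at 143 bases before start a and at 207 bases. These motifs were found in 7.02% and 2.98% of all windows. The windows of Cldn3, Cldn4, Ocln and F11r held none of the 4 motifs.

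The channel-forming claudins did not move together. Cldn2, the cation and water channel of the crypt epithelium (X: 139800828 to 139811386 on GRCm38), was at 45.9 CPM untreated, 47.1 CPM at 24 h and 57.0 CPM at 48 h. The 48 h library was the high one, at a log2 ratio of 0.31 (95% interval 0.23 to 0.39), while the ratio at 24 h, 0.039 (-0.039 to 0.116), could not be told from 0 by counting. With every cell thinned to 5000 UMIs, so that deep cells weigh no more than shallow ones, the ratio was 0.044 at 48 h and -0.22 at 24 h. Cldn15, which forms the sodium channel of the intestine (chromosome 5: 136966616 to 136975858), went the other way, at 66.3, 44.6 and 38.1 CPM. Both treated libraries were below the untreated one, with log2 ratios of -0.57 (-0.64 to -0.50) and -0.80 (-0.88 to -0.71). Untreated organoids thus had fewer Cldn2 than Cldn15 molecules counted, and organoids at 48 h had more. With cells thinned to 5000 UMIs, the untreated gap was not seen. Then 240 untreated cells had a Cldn2 UMI and 242 a Cldn15 UMI, and at 48 h 715 and 483 cells did. Within the pair, Cldn2 made up 40.9% of the UMIs untreated (39.6 to 42.2%), 51.4% at 24 h (50.2 to 52.6%) and 59.9% at 48 h (58.5 to 61.3%). This ratio is taken inside a library and does not depend on how libraries are scaled. The Cldn2 to Cldn15 ratio was higher than in untreated cells by 0.61 log2 units at 24 h (0.51 to 0.72) and by 1.11 at 48 h (0.99 to 1.22). Barcodes below 2000 UMIs, used here as background, had 46.5%, 51.5% and 51.6% Cldn2 in the pair. The share in cells thus lay below the background untreated and above it at 48 h. Whether these barcodes hold free RNA or shallow cells was not tested. In the untreated library 17603 of them held 29083744 UMIs. After the same thinning the difference was 0.27 at 24 h and 0.61 at 48 h.

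The sealing claudins made up most of the claudin mRNA. Cldn7, a claudin of the lateral membrane that is required for an intact intestinal epithelium, was the most abundant of the 10 genes with 1362 CPM untreated, 1301 CPM at 24 h and 1163 CPM at 48 h. The ratio was -0.066 at 24 h (-0.080 to -0.051) and -0.23 at 48 h (-0.24 to -0.21). The sign at 24 h turned to 0.38 with TMM factors and to 0.32 when the median of all genes was set to 0. Cldn3 (chromosome 5: 134986214 to 134987472), a barrier-tightening claudin, was at 581, 628 and 663 CPM and so was higher in each treated library, at 0.11 (0.09 to 0.14) and 0.19 (0.17 to 0.21). The Cldn3 to Cldn7 ratio was higher by 0.18 at 24 h and by 0.42 at 48 h. Together both genes gave 97.1 to 97.7% of the sealing claudin UMIs in each library.

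Cldn4 (chromosome 5: 134945119 to 134946934, minus strand), the close neighbour of Cldn3 and a claudin that restricts sodium passage, was at 52.4 CPM untreated, 43.2 CPM at 24 h and 48.0 CPM at 48 h. Its ratios of -0.28 (-0.35 to -0.20) and -0.13 (-0.21 to -0.05) turned to 0.17 and 0.059 with TMM factors. Cldn23 (chromosome 8: 35824712 to 35826559, minus strand), a claudin of differentiated colonocytes, was the rarest claudin among the 10 genes, with 5.86, 2.59 and 1.88 CPM. It rested on 292, 184 and 89 UMIs. Both treated libraries were more than 2-fold below the untreated one, 2.26 times lower at 24 h, at a log2 ratio of -1.18 (-1.45 to -0.91), and 3.11 times lower at 48 h, at -1.64 (-2.00 to -1.29). In background barcodes it stood at 6.09, 2.76 and 1.14 CPM. With cells thinned to 5000 UMIs the 24 h ratio was -0.61, and with TMM factors it was -0.73, neither past 2-fold. The ratio at 48 h was past 2-fold under each of the 11 alternatives applied to single genes.

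Cldn23 was the only one of the 10 genes past a 2-fold change. At 24 h, 1 of 10 was at least 2-fold lower, beside 19.9% of the 14230 genes tested, and 0 of 10 were 2-fold higher, beside 2.97%. At 48 h, 1 of 10 was 2-fold lower, beside 12.1% of 14206 genes, and 0 were 2-fold higher, beside 4.18%. Between 24 h and 48 h, 0 of 10 passed 2-fold, beside 7.33% of 13772 genes that were 2-fold higher at 48 h and 1.31% that were 2-fold lower. The median ratio of the 10 genes was -0.44 at 24 h and -0.22 at 48 h, close to the all-gene medians given above. At each time 8 of 10 ratios were below 0, beside 73.5% of all genes tested at 24 h and 61.5% at 48 h.

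**Figure D1:**
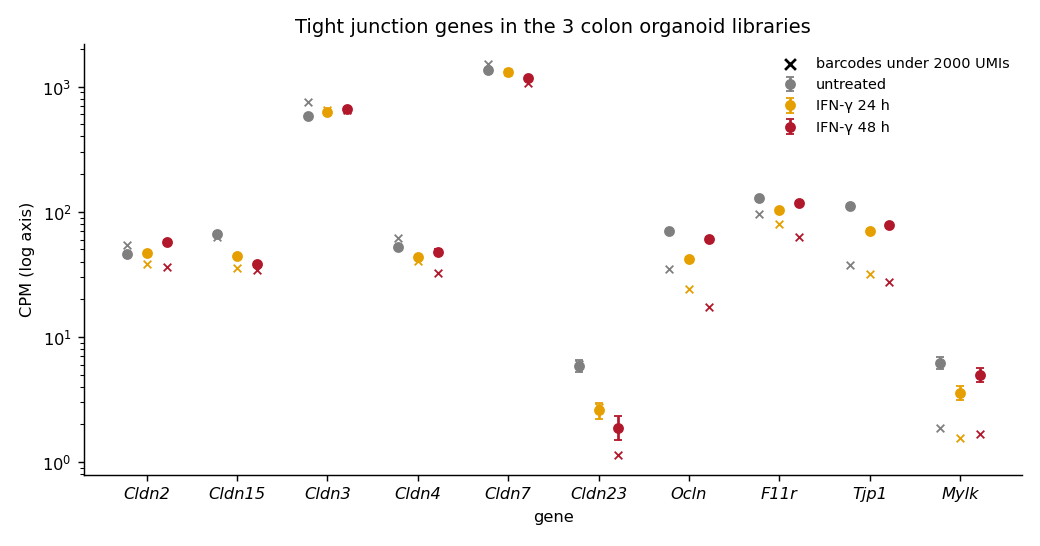
Level of each of the 10 genes (x axis) in CPM on a log axis (y axis) in the untreated, IFN-γ 24 h and IFN-γ 48 h library. Circles are sums over cells with 95% Poisson intervals, which are often smaller than the circle, and crosses are barcodes below 2000 UMIs of the same library. Cldn7 and Cldn3 lie highest, Cldn23 and Mylk lowest, and Cldn15 and Cldn23 step down through both treated libraries.

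**Figure D2:**
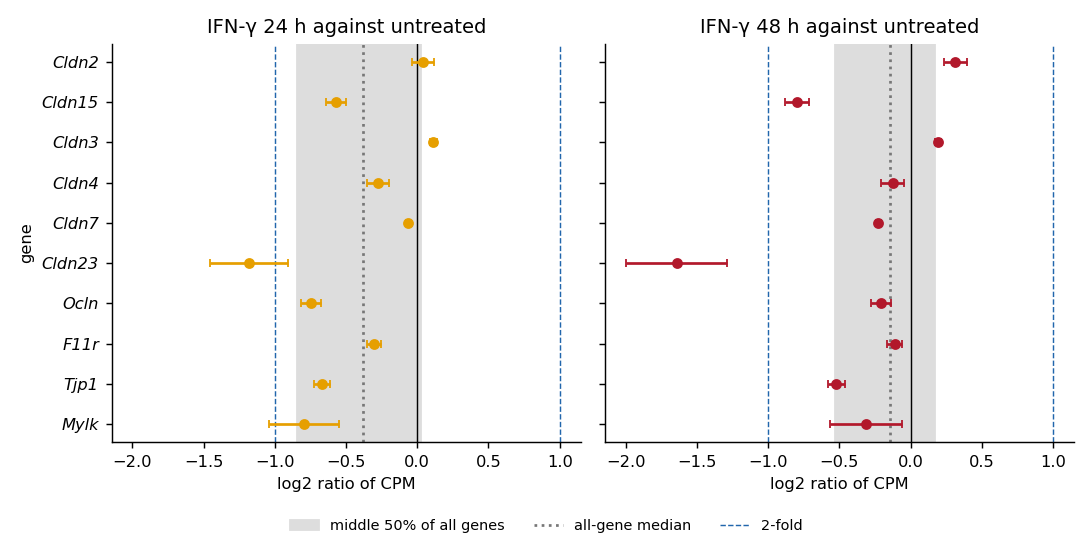
log2 ratio of CPM to the untreated library (x axis) for each of the 10 genes (y axis) at 24 h (left) and 48 h (right), with 95% counting intervals. Grey bands are the middle 50% of all genes tested, the dotted line their median and dashed lines a 2-fold change. Cldn23 alone lies beyond 2-fold, and Cldn2 and Cldn3 lie right of the band at 24 h and at 48 h.

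Summed over the 6 claudins, channel-forming molecules were a small and slightly smaller share after IFN-γ. Cldn2 and Cldn15 together gave 5.31% of the 6 claudins' UMIs untreated (5.17 to 5.45%), 4.44% at 24 h (4.33 to 4.54%) and 4.82% at 48 h (4.69 to 4.96%). The intervals of the 3 libraries did not overlap. The log2 ratio of channel-forming to sealing claudins was lower by -0.27 at 24 h (-0.32 to -0.22) and by -0.15 at 48 h (-0.20 to -0.09), and the 48 h library lay 0.13 above the 24 h library (0.07 to 0.18). In these unthinned sums the direction came from Cldn15, since Cldn2 was not lower in either library. With cells thinned to 5000 UMIs, Cldn2 was itself lower at 24 h, at -0.22. With each claudin given equal weight the sign turned, to 0.085 at 24 h and 0.21 at 48 h. Cldn23 then counts as much as Cldn7.

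**Figure D3:**
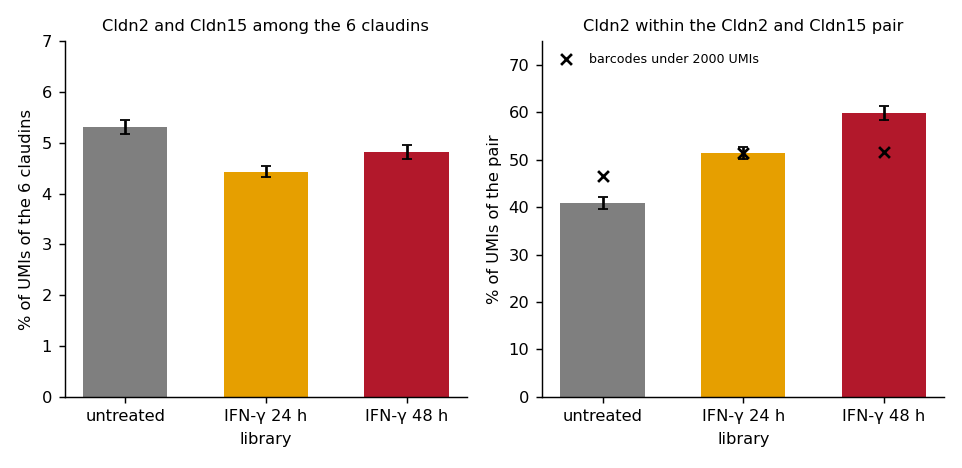
Left, UMIs of Cldn2 and Cldn15 as a percentage of all UMIs of the 6 claudins, and right, UMIs of Cldn2 as a percentage of the UMIs of the Cldn2 and Cldn15 pair, in each library (x axis). Bars are shares with 95% exact binomial intervals and crosses the shares in barcodes below 2000 UMIs. The left share is between 4.44% and 5.31% in the 3 libraries, and the right share goes from 40.9% to 59.9%.

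Among the other claudins in the annotation, most were at or near 0. Of 32 claudins in all, 11 had no UMI in any library, 12 had 1 to 49 UMIs over the 3 libraries and 9 had at least 50. Beside the 6 genes above, these were Cldn8, Cldn12 and Cldn14, named here after their values were seen. Cldn8, a barrier claudin of the distal gut and kidney, had 223 UMIs untreated, 41 at 24 h and 24 at 48 h, which gives log2 ratios of -2.96 and -3.14. Cldn14, a cation barrier claudin known from the inner ear and kidney, had 282, 84 and 13 UMIs, at -2.26 and -4.36. Of the 84 at 24 h, 78 came from 12 cells of an enteroendocrine-like cluster. The same cluster had 28 UMIs in 30 cells untreated and 7 in 20 cells at 48 h, so its 24 h count was not lower. With 12 cells it was too small for a ratio at 24 h. In unnamed cluster 1 the counts were 110, 2 and 2, and in goblet-like cluster 4 they were 81, 3 and 1. Over whole libraries, Cldn8 and Cldn14 lay further below the untreated library than any of the 10 genes. Cldn12 was at 13.4, 10.0 and 13.4 CPM. Cldn1, another barrier claudin, had 3, 12 and 13 UMIs, too few for the 50-UMI minimum. Counting every claudin of the wider lists, 3 of the 6 sealing claudins tested were at least 2-fold lower at each time. Of the 3 channel-forming claudins tested, 0 were. Beside these stand 19.9% of all genes tested at 24 h and 12.1% at 48 h, so 0 of 3 is near those shares. The 3 sealing claudins were Cldn8, Cldn14 and Cldn23, the rarest of the 6, at 4.48, 5.66 and 5.86 CPM untreated. Cldn8 reached the 50-UMI minimum only through its untreated UMIs, as Cldn14 did at 48 h. A gene that passes in this way can only come out as lower, while Cldn1 was left out. The counts 3 of 6 and 0 of 3 therefore cannot be compared.

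The other membrane proteins of the junction had their lowest level at 24 h. Ocln, which encodes occludin (chromosome 13: 100496507 to 100552718, minus strand), was at 70.0 CPM untreated, 41.7 CPM at 24 h and 60.7 CPM at 48 h. The 24 h library was the low one, at -0.75 (-0.82 to -0.68), and the 48 h ratio was -0.21 (-0.28 to -0.14). Under the 11 alternatives the 48 h ratio ran from -0.46, with clusters weighted by their untreated shares of cells, to -0.021 with TMM factors. F11r, which encodes the adhesion molecule JAM-A (chromosome 1: 171437535 to 171464603), had 127.9, 103.6 and 118.3 CPM, and its ratios of -0.30 and -0.11 were close to the median of all genes. They turned to 0.14 and 0.073 with TMM factors. Of the 9 genes tested in the wider list of tight junction membrane proteins, which holds both, 8 had a ratio below 0 at 24 h and 6 did at 48 h. Among all genes tested, 73.5% and 61.5% did. The medians of the list were -0.61 and -0.21. Cxadr, the coxsackie and adenovirus receptor, an adhesion molecule of the junction, was the 1 gene of this list past 2-fold, at -1.23 at 24 h. At that time 19.9% of all genes tested were at least 2-fold lower. Cxadr was at -0.81 at 48 h. All 9 had a ratio above 0 between 24 h and 48 h, from 0.024 to 0.73, beside an all-gene median of 0.23. Of the 13772 genes tested between these times 33.8% were below 0, so most genes were also higher at 48 h.

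Tjp1, which encodes the scaffold ZO-1 (chromosome 7: 65296165 to 65527781, minus strand), was at 112.1 CPM untreated, 70.5 CPM at 24 h and 78.0 CPM at 48 h. Both treated libraries were lower, at -0.67 (-0.72 to -0.61) and -0.52 (-0.58 to -0.46), and the sign held under the 11 alternatives at each time, down to -0.22 at 24 h with TMM factors. Tjp3, named after its values were seen, encodes the related scaffold ZO-3 and was at -0.56 and -0.51. Of 21 tested scaffold and polarity genes, 19 were below the untreated library at 24 h, 18 of them also below the median of all genes, and the list's median was -0.68. At 48 h the median was -0.29 and 17 of 21 were below the untreated library. The shares of all genes tested below it were 73.5% at 24 h and 61.5% at 48 h. Cgnl1, which encodes paracingulin, and Magi1, a large scaffold, were the 2 genes past 2-fold at 24 h, at -1.35 and -1.26. Among all genes tested, 19.9% were at least 2-fold lower at 24 h. At 48 h Cgnl1 and Magi1 stood at -0.48 and -0.29.

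Mylk, myosin light chain kinase (chromosome 16: 34745210 to 35002420), was rare in these epithelial cells, with 6.20 CPM untreated, 3.57 CPM at 24 h and 4.995 CPM at 48 h. The counts were 309, 254 and 236 UMIs. No library was higher than the untreated one, at ratios of -0.80 (-1.04 to -0.55) and -0.31 (-0.56 to -0.06). Under the 11 alternatives the ratio ran from -0.99 to -0.29 at 24 h and from -0.41 to -0.048 at 48 h. Both upper ends came with clusters weighted by their untreated shares of cells. Smooth muscle markers, listed above, were higher in both treated libraries than in the untreated one, and their part in the Mylk values was not tested. In the list of 18 tested genes of junction contractility, which includes Mylk, the median was -0.37 at 24 h and -0.29 at 48 h. At 24 h 1 gene was at least 2-fold lower, Myh10, from 58 and 36 UMIs, and none was at 48 h. Beside these stand 19.9% of all genes tested at 24 h and 12.1% at 48 h. Rac1, a GTPase that organises junctional actin, was the highest of the list, at 0.77 and 0.50. The GTPase Rhoa, which drives contraction, stood at 0.0098 and -0.37. These genes, like Cdh1, Nectin1, Epcam, St14, Wnk4, Cdx2, Hnf4a and Snai1 that follow, were chosen after their values were seen.

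Genes of neighbouring junctions and of claudin handling were measured alongside. All 15 adherens junction and desmosome genes were below the untreated library at 24 h (median -0.65) and 13 of 15 at 48 h (median -0.42). For comparison, 73.5% of all genes tested were below it at 24 h and 61.5% at 48 h. Dsp, desmoplakin, was at -1.06 and -0.73, and Nectin1, an adhesion molecule of the nectin family, at -1.31 and -0.96. Cdh1, E-cadherin, was at -0.55 and 0.15. Among 11 claudin partners and membrane proteases, the medians were -0.43 and -0.28. Epcam, whose protein binds claudin-7, was at 0.029 and -0.28, beside -0.066 and -0.23 for Cldn7. St14, matriptase, was at 0.10 and 0.52. Cd9, a tetraspanin that associates with claudins, was at -0.57 and, past 2-fold, -1.14. Wnk4, a kinase that acts on claudins, was low at 10.5, 3.31 and 4.51 CPM, at -1.67 and -1.22. Of the transcription factors listed for their link to claudin genes, 13 were tested at 24 h and 12 at 48 h. Their medians were -0.30 and -0.35. Past 2-fold were Snai1 (higher), Klf4 and Zeb1 at 24 h and Klf4 at 48 h. Among all genes tested, 2.97% were 2-fold higher and 19.9% 2-fold lower at 24 h, and 12.1% were 2-fold lower at 48 h. Cdx2, the intestinal homeobox factor, was at -0.21 and -0.77, Hnf4a, another factor of the intestinal epithelium, at -0.97 and -0.84 and Klf4, a factor of differentiated colon epithelium, at -1.003 and -1.72. Snai1, a repressor of junction genes, had 1, 59 and 35 UMIs. At 24 h Snai1 reached the UMI minimum only through its treated UMIs, so it could only come out as higher. At 48 h it was below the minimum and was not tested. Zeb1, with 60 UMIs untreated and 17 at 24 h, reached the minimum through its untreated UMIs. The 24 h calls of Snai1 and Zeb1 therefore cannot be compared with the shares of all genes.

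Where the 10 genes were expressed was read from 9 clusters that were formed without any junction gene among the variable genes. Clusters 0, 1, 3, 6 and 8 got no name. Cluster 0, shallow in depth, was led by Angpt2 and Sorbs2os and had the stem list as its best match. Cluster 1 was led by histone genes and Ascl2. Cluster 3, also shallow, was led by Pparg and St3gal4, and cluster 6 by Selenbp1. Cluster 2 was colonocyte-like (Krt20, Car1 and Slc26a3 led) with 172, 107 and 279 cells, clusters 4 (Spink4, Tff3) and 5 (Kcnma1) were goblet-like and cluster 7 (Chgb, Chga) enteroendocrine-like. Clusters 0, 3 and 5, all shallow, had untreated medians of 10.3%, 10.0% and 9.6% mitochondrial UMIs. In clusters 1, 2 and 4 the medians were 2.96%, 3.90% and 3.57%. Cluster and library groups with fewer than 20 cells were left out.

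Untreated, the 10 genes had different homes. Cldn2 was lowest in the colonocyte-like cluster, at 19.7 CPM (17.1 to 22.5), next to 23.0 CPM (12.3 to 39.3) in the enteroendocrine-like cluster, against 48.5 CPM in cluster 1, 69.1 CPM in cluster 0 and 57.6 CPM in goblet-like cluster 4. Cldn15 was highest in goblet-like cluster 4, at 116.2 CPM (107.4 to 125.5), and lowest in the enteroendocrine-like cluster, at 8.85 CPM from 5 UMIs. The interval of cluster 6 overlapped that of cluster 4, at 97.4 CPM (82.1 to 114.8). Goblet-like cluster 5 was at 58.8 CPM (44.1 to 76.7). Cldn3 was at 696.0 CPM in the colonocyte-like cluster and 679.7 CPM in goblet-like cluster 4, with overlapping intervals, and lowest in the enteroendocrine-like cluster at 269.0 CPM. Mylk was concentrated in the colonocyte-like cluster, with 17.6 CPM against 1.92 CPM in cluster 1, and 190 of its 309 untreated UMIs. Cldn4 ranged most among the genes with a count in every cluster, from 6.18 CPM in cluster 6 (9 UMIs) to 207.2 CPM in cluster 3, with 131.0 CPM in the enteroendocrine-like cluster. Cldn23, Ocln, F11r and Tjp1 were also highest in cluster 3, at 20.4 (20 UMIs), 198.0, 258.3 and 206.2 CPM. That cluster is shallow and has no name, with a median of 10.0% mitochondrial UMIs and 11989 UMIs per cell. The part of cell quality in these levels was not tested. Between their lowest and highest cluster, F11r varied 2.33 times, Cldn3 2.59 times and Cldn7 2.80 times.

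**Figure D4:**
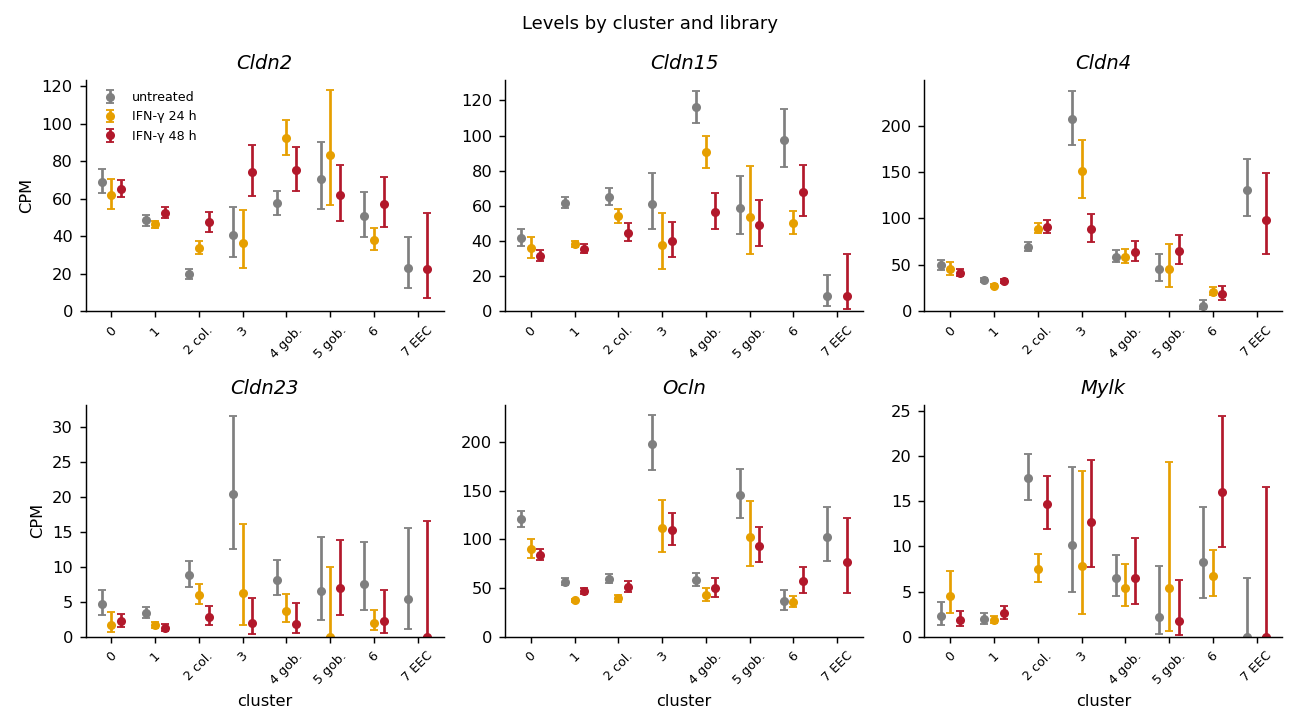
CPM (y axis, linear) of Cldn2, Cldn15, Cldn4, Cldn23, Ocln and Mylk in the 8 clusters with at least 20 untreated cells (x axis, with col. for colonocyte-like, gob. for goblet-like and EEC for enteroendocrine-like), per library with 95% Poisson intervals. In cluster 2 the 3 libraries step up for Cldn2, from 19.7 to 47.4 CPM, and in cluster 4 they step down for Cldn15, from 116.2 to 56.5 CPM.

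Inside the colonocyte-like cluster Cldn2 was at 19.7 CPM untreated, 33.9 CPM at 24 h and 47.4 CPM at 48 h. This was a ratio of 0.78 (0.54 to 1.03) and then 1.27 (1.01 to 1.52). The level of the cluster at 48 h was close to that of cluster 1, which was at 48.5, 46.4 and 52.7 CPM. Each library holds different cells. A change in which cells were assigned to the cluster therefore cannot be told apart from a change within cells. Over the same libraries the Cldn2 level in background barcodes was 54.3, 37.9 and 36.5 CPM, and subtracting 10% of that profile moved the ratios to 1.08 and 1.62. With cells thinned to 5000 UMIs they were 0.42 (-0.67 to 1.49) and 1.61 (0.87 to 2.43), so at equal depth the 24 h interval held 0. Goblet-like cluster 4 was also higher in Cldn2, at 57.6, 92.2 and 75.2 CPM. Cluster 3, shallow and unnamed, had the colonocyte list as its best match, at a median log2 fold of 0.17. It was at 40.8, 36.1 and 74.1 CPM, and its 48 h ratio was 0.86 (0.33 to 1.42), while its 24 h interval held 0. At 48 h, 5 of the 7 clusters with at least 50 UMIs were higher and 2 lower. The interval lay above 0 in 3 of them. Goblet-like cluster 5 was at 70.7, 83.1 and 62.0 CPM, and both intervals of its ratio held 0. In cluster 0 the 3 values were 69.1, 62.2 and 65.2 CPM, and both intervals of the ratio held 0. In the colonocyte-like cluster 0 of 10 genes were at least 2-fold higher at 24 h, beside 4.84% of 11130 genes tested there, and 1 was 2-fold lower (Mylk), beside 14.4%. At 48 h, Cldn2 was 2-fold higher, beside 4.86% of 10912 genes, and Cldn23 was 2-fold lower, beside 8.54%. These values rest on the integration of the libraries. Without it, 497 of 500 untreated colonocyte-like cells fell in another cluster than the treated ones, and the Cldn2 ratios became -0.22 and 0.42. The class then held 500, 90 and 368 cells, against 172, 107 and 279 with integration. These ratios therefore compare other sets of cells.

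Cldn15 was lower in all 7 clusters with at least 50 UMIs at both times, with the interval below 0 in 4 of them at 24 h and in 6 at 48 h. For all genes tested, the median ratio was also below 0 in every cluster compared. It ran from -0.28 to -0.02 at 24 h and from -0.29 to -0.04 at 48 h. Cldn15 itself was furthest down in goblet-like cluster 4 at 48 h, at 116.2, 90.4 and 56.5 CPM and a ratio of -1.04 (-1.33 to -0.76). Goblet-like cluster 5 was at 58.8, 53.6 and 48.9 CPM, with a 48 h ratio of -0.27 (-0.83 to 0.30). In the colonocyte-like cluster the values were 65.3, 54.2 and 44.8 CPM. Because Cldn2 was higher and Cldn15 lower there, the channel-forming share in the colonocyte-like cluster was 3.63%, 3.64% and 3.90% of the 6 claudins, with overlapping intervals. In cluster 1 it was 5.31%, 4.36% and 4.71%. Goblet-like cluster 4 had 7.42%, 7.97% and 6.06%, and goblet-like cluster 5 had 8.71%, 8.73% and 6.50%.

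Cldn3 was higher at 48 h in all 8 clusters compared, with intervals above 0, at ratios from 0.15 to 0.77. Its values in the colonocyte-like cluster were 696.0, 817.3 and 865.6 CPM. Cldn7 was lower in 6 of 8 clusters at 48 h and higher in cluster 5 (0.21) and cluster 7 (0.38). Cldn4 had no common direction. It was higher in the colonocyte-like cluster at 69.8, 89.15 and 90.9 CPM and lower in cluster 3 at 207.2, 150.9 and 88.7 CPM. Cldn23 had enough UMIs in 3 clusters, 0, 1 and 2, or 1, 2 and 4 at 24 h, and was lower in each of them at each time. At 48 h clusters 1 and 2 reached the minimum through their untreated UMIs, 78 and 95 against 26 and 19. Below the minimum, clusters 3, 4 and 6 were at -3.43, -2.12 and -1.72 at 48 h. Cluster 5 was at 0.096, from 6 and 8 UMIs, and cluster 7 had 3 and 0 UMIs. In the colonocyte-like cluster it stood at 8.78, 5.98 and 2.79 CPM.

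Tjp1 was lower in all 7 clusters at 24 h and all 8 at 48 h, with intervals below 0 in 5 each time. Ocln was lower in 7 of 7 clusters at 24 h and 7 of 8 at 48 h. The exception was cluster 6, at 36.4, 35.8 and 57.2 CPM, where the 48 h ratio was 0.65 (0.13 to 1.19). In cluster 0, Ocln was at 120.6, 90.0 and 84.3 CPM and Tjp1 at 170.0, 114.9 and 94.8 CPM. F11r was lower in 7 of 7 clusters at 24 h and 7 of 8 at 48 h, by no more than 0.94. At 24 h it was at -0.28, -0.10 and -0.24 in clusters 1, 2 and 4. The medians of all genes there were -0.23, -0.24 and -0.28, so these counts of lower clusters share the shift of most genes. Mylk in the colonocyte-like cluster was at 17.6, 7.46 and 14.7 CPM, low at 24 h at a ratio of -1.24 (-1.61 to -0.87), and at 48 h at -0.26, with an interval that held 0 (-0.62 to 0.10). Of the 3 clusters with at least 50 Mylk UMIs, all 3 were lower at 24 h, 1 of them with its interval below 0. At 48 h 1 was lower and 2 were higher, up to 0.43, and every interval held 0.

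Levels in background barcodes were unequal among the 10 genes. In the untreated library the claudins stood at levels in background barcodes near those in cells, with 54.3 against 45.9 CPM for Cldn2, 62.4 against 66.3 CPM for Cldn15, 755.5 against 580.6 CPM for Cldn3 and 1528 against 1362 CPM for Cldn7. Tjp1 had 37.2 against 112.1 CPM and Mylk 1.86 against 6.20 CPM, so their background was lower than the level in cells. The part of free RNA in the claudin levels of single clusters was not tested beyond the subtraction given for Cldn2.

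The genes whose level over the 24 cluster and library groups was most like that of 4 of the 10 genes are given as a description, by Pearson's r of log2(CPM + 1) among 6703 genes of at least 20 CPM. The groups share libraries and depth, and no p-value is given. For Cldn2 they were Tmed5, Fads2 and Alg8, each at 0.80. Cldn4 was most like Dlgap4 (0.88), Smox (0.85) and Mdm2 (0.83). Cldn23 was most like Tob1 (0.84), Pnrc1 (0.83) and Slc26a2 (0.79), the last a sulfate transporter of colonocytes. For Mylk, Pkp3 (0.83) and Perp (0.82), which encode desmosome proteins, were among the genes most like it.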

How the data were processed

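Mouse colon organoids were measured in 3 droplet libraries. The authors mapped reads to mm10 with Cell Ranger 6.0.1 and deposited raw UMI counts per gene and barcode, without normalization. The annotation release behind them is not given in the sources used here. Positions came from GENCODE vM21 and promoters from RefSeq, both on GRCm38.

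Cells were filtered as in the study's methods (at least 5000 UMIs, at least 400 genes, at most 15% mitochondrial UMIs), and counts were summed per library and scaled to CPM. Ratios have exact conditional binomial intervals, levels Poisson, shares Clopper-Pearson and ratios of sums Woolf intervals, at 95%. Genes with at least 50 UMIs over the 2 libraries were compared, and the ratio calculation was tested on simulated data. No test across samples was made. PCR duplicates were removed by UMI. Doublets and free RNA were kept.

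Clusters used Seurat 5.3.0 with CCA over 30 dimensions, 2000 variable genes, 20 principal components at resolution 0.5, with names from marker lists. A cluster took the name of its best list with at least 3 markers at a log2 fold of at least 0.5 in at least 10% of cells, unless another list held more of its 10 leading genes, which left clusters 1 and 6 unnamed. A shallow cluster, whose depth lay more than 3 times below the median of a library, also needed a marker among those 10. TMM factors came from edgeR 4.0.16. The 10 genes were named in full. From each list up to 6 genes were named whose mean reached 20 CPM and whose ratio passed 2-fold at 24 h or 48 h, and others as stated. Genes most like 4 of the 10 and genes that check the treatment were named too, and some of these are not reported here. Genes and lists were chosen with earlier results of these data known. Alternatives are given in the closing section.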

Additional observations from a re-analysis of the deposited data

Results flagged for a closer look

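In 6 cases the counting intervals put a gene above the untreated level in 1 cluster and below it in another under the same treatment. The difference between clusters was not tested, and each cluster and time has 1 library. Cldn2 at 24 h was at a log2 ratio of 0.78 in colonocyte-like cluster 2 and -0.42 in cluster 6. Cldn4 at 24 h was at 1.78 in cluster 6, from 9 untreated UMIs, and -0.46 in cluster 3. At 48 h Cldn4 was at 1.57 in cluster 6, from 9 and 24 UMIs, and -1.22 in cluster 3. Cldn7 at 24 h was at 0.26 in cluster 0 and -0.17 in goblet-like cluster 4. At 48 h Cldn7 was at 0.38 in enteroendocrine-like cluster 7, which held 20 cells then, and -0.30 in cluster 4. Ocln at 48 h was at 0.65 in cluster 6 and -0.85 in cluster 3.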

How the results depend on the processing

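Each condition had 1 library, so no library could be left out. No paired analysis was possible because each group has 1 library and the labels carry no replicate numbers. Values are log2 ratios to the untreated library at 24 h and then 48 h unless stated. The channel-forming to sealing ratio, -0.27 and -0.15, was -0.38 at 24 h as a mean over cells and -0.40 with cells thinned to 5000 UMIs. With Cldn3 and Cldn4 as the only sealing claudins it was -0.38 and -0.41, and without Cldn7 -0.37 and -0.40. Equal weight for each claudin reversed it, to 0.085 and 0.21. The Cldn2 to Cldn15 ratio, 0.61 and 1.11, was 0.42 and 0.92 as a mean over cells, 0.27 and 0.61 after thinning, and 0.47 and 0.82 with clusters weighted by their untreated shares. At 24 h it was also 0.72 with at most 10% mitochondrial UMIs and 0.79 without the shallow clusters. The alternatives for this pair, for colonocyte-like cells and without shallow clusters were chosen after seeing the data.

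The count of genes at least 2-fold lower at 24 h, 1 of 10, was 0 with thinned cells, with TMM factors and with the median of all genes set to 0, and 4 at a 1.5-fold limit. At 48 h the 1.5-fold limit gave 2. The share of all genes past the 1.5-fold limit was not computed. The lower quartile of all genes tested was -0.84 at 24 h and -0.53 at 48 h, so these counts are not read as a trait of the 10 genes. TMM factors raised log2 ratios by the size of their shift, -0.45 and -0.19. At 24 h TMM factors and the all-gene median turned Cldn4 to 0.17 and 0.11, Cldn7 to 0.38 and 0.32 and F11r to 0.14 and 0.078. At 48 h they turned Cldn4 to 0.059 and 0.015 and F11r to 0.073 and 0.029, and leaving out shallow clusters turned Cldn4 to 0.0052. Cldn7 at 24 h was 0.024 as a mean over cells, 0.045 after thinning and 0.029 with weighted clusters. Cldn2 in colonocyte-like cells, 0.78 and 1.27, was 0.42 and 1.61 after thinning, 1.08 and 1.62 after the background was subtracted, and 0.52 at 24 h at a resolution of 1. Without integration it was -0.22 and 0.42. At 24 h Cldn7 was then at 0.16, Cldn23 at 0.84, Tjp1 at 0.19, F11r at 0.48 and Mylk at 1.05, and Ocln at 48 h at 0.045. At each time 2 genes were then 2-fold higher in colonocyte-like cells and 0 were 2-fold lower. The share of all genes past 2-fold in that clustering was not computed, so these counts have no background beside them. Of the values of these summaries under the alternatives, 90 stayed near the reported value, 29 moved and 3 reversed. A ratio stayed near if it lay inside the reported counting interval, and a count or share if it was within 1.5-fold. It was called reversed only where its sign turned and the reported interval excluded 0. Cldn2 at 24 h, whose interval held 0, kept its sign in 8 of 11 alternatives, and its turns of sign are not among the reversed. Of those of single genes, in whole libraries or in colonocyte-like or goblet-like cells, 195 stayed inside the interval, 118 moved and 20 reversed. The cause was not tested. Cluster limits also shifted with the linear algebra routines, which were held fixed. Depth limits Cldn23 and Mylk most, which had 89 and 236 UMIs at 48 h.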
